A study of Mus musculus with 8 samples.

Results

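The anoctamins, or TMEM16 proteins, are a family of membrane proteins named Ano1 to Ano10. Here they were described in Adam10 knockout and wild-type mouse skin samples; Adam10 is a protease that sheds the outer parts of membrane proteins. Members were taken by gene symbol. Of the 10 genes, 9 had a probe set annotated to that symbol alone, among 19935 genes tested. Ano5 had 0 such probe sets and was not analysed here. Ano3 had 2, and the one with the higher mean over all 8 arrays was kept. The family was chosen by the large knockout against wild-type difference of Ano7, which was already known, so that contrast is described for its members and lends no independent support.

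Expression had been measured on Affymetrix Mouse Gene 1.0 arrays, 1 array per sample, in 4 Adam10 knockout samples and 4 Adam10 wild-type samples. The titles call the knockouts cKO, which usually stands for conditional knockout, and add the letter P and a number. The number is 67, 68, 69 and 55 for knockouts 1 to 4 and 57, 58, 59 and 60 for wild types 1 to 4. What the P and the number stand for is not known here. The labels used here name no Cre line, strain, age or sex, do not say whether each sample is a separate animal, and describe the material both as skin and as primary skin cells. The p-values here rest only on the spread over these arrays, which may be technical in part. Values are log2 intensities, and a difference is knockout minus wild type on that scale. A gene is called changed where its limma p-value, adjusted by Benjamini-Hochberg over all 19935 genes, is below 0.05.

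Anoctamins form pairs in the membrane, and calcium inside the cell opens or activates most of those studied. Some conduct chloride, some move phospholipids between the leaflets of the membrane (scramblases), and some do both. In epithelia they are known for fluid and mucus secretion, and phospholipid scrambling exposes phosphatidylserine on the cell surface.

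The arrays carried skin transcripts, and the wild-type arrays differed in their muscle and dermal markers. Krt14, the keratin of basal keratinocytes, was at 11.86 to 12.12 in the knockouts and at 11.04 to 11.56 in wild type, and Krt10, of suprabasal keratinocytes, at 12.19 to 12.34 in the knockouts and 12.31 to 12.53 in wild type. Wild-type array 4 stood apart, at 61.2 along principal component 1, where the other arrays lay between -24.9 and 17.5. Its summed skeletal muscle, dermal and fat markers were high, and wild-type array 3 shared the muscle and dermal part. Not every dermal marker followed, as Dcn was at 9.03 on wild-type array 3 and at 9.62 to 9.75 in the knockouts. The summed intensity of 18 muscle markers was 8.23 to 8.47 in log2 units in the knockouts, against 8.45, 8.64, 10.38 and 13.04 on wild-type arrays 1 to 4. Results that follow are therefore also given without wild-type arrays 3 and 4 where that changed a call. In such bulk samples fewer cells of a type and less RNA per cell cannot be told apart. Adam10 itself was at 6.85, 7.00, 7.04 and 6.79 in knockouts 1 to 4, against 7.39, 7.33, 7.06 and 7.34 in wild types 1 to 4. No knockout reached the lowest wild type, and the difference of -0.36 (exact two-sided permutation p = 0.0286, the smallest that 70 assignments allow) did not pass over all genes (adjusted p = 0.064).

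Of the 9 anoctamins measured, 1 rose and 2 fell in the knockout. Ano6 rose, and Ano7 and Ano10 fell. The fall of Ano7 was the widest difference in the family. Over all genes 8.75% were called, 6.41% higher and 2.34% lower in the knockout. In a fit of only the 9968 genes above the median level, 1835 were higher and 511 lower, so brighter genes passed more often. The groups did not overlap for those 3 anoctamins, as for 18.1% of all genes (12.2% higher and 5.86% lower in the knockout). The median difference of the 9 was -0.10, and that of all genes was 0.0027. With 9 members each call weighs heavily in such a share. Leaving out wild-type arrays 3 and 4 left 0 higher and 1 lower, Ano7.

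**Figure D1:**
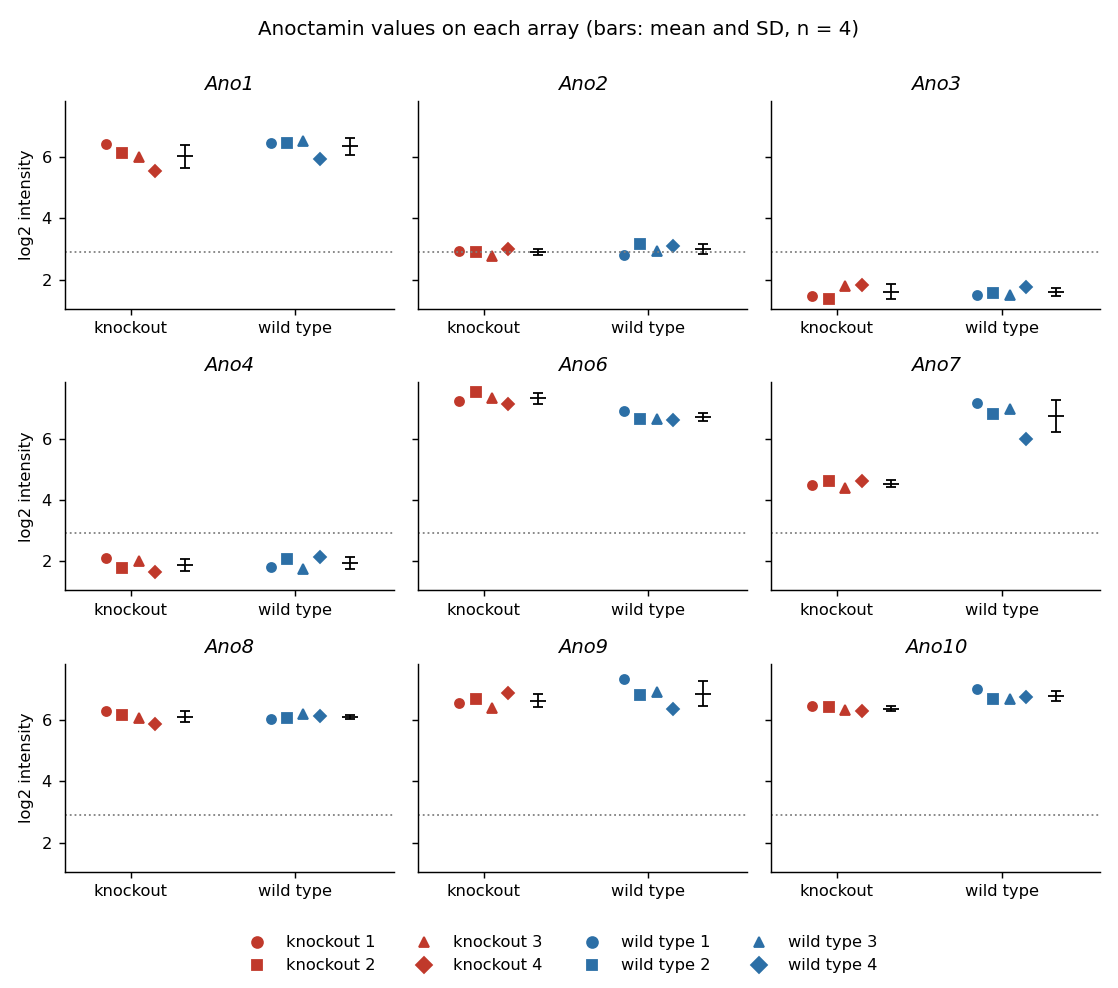
Log2 intensity of the 9 measured anoctamins on each array, 4 knockout arrays in red to the left of 4 wild-type arrays in blue, with the mean and SD of each group beside the points and a dotted line at the median over arrays of the 25th percentile of all genes. The groups are apart for Ano6, Ano7 and Ano10, and Ano3 and Ano4 lie below the dotted line on every array.

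The start regions of the 3 genes that passed are printed first, from RefSeq (GRCm38.p6), as 250 bases before to 50 bases after an annotated start, on the strand of the gene. Both strands were searched for 4 motifs, with no overlapping matches found. They were the GC box, spelled CCGCCC, and the RBPJ core, the AP-1 site and the TATA box. Capitals mark GC boxes, on either strand, since no other of these motifs was matched there. Ano7 is at chr1:93373646-93373945 (plus strand), Ano6 at chr15:95790593-95790892 (plus strand) and Ano10 at chr9:122294374-122294673 (minus strand).
Ano7: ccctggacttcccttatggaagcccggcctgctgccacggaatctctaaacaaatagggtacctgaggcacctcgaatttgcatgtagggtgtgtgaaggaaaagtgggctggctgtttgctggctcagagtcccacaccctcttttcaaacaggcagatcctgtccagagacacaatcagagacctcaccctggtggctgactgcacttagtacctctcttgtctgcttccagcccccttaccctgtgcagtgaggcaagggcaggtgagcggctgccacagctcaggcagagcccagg
Ano6: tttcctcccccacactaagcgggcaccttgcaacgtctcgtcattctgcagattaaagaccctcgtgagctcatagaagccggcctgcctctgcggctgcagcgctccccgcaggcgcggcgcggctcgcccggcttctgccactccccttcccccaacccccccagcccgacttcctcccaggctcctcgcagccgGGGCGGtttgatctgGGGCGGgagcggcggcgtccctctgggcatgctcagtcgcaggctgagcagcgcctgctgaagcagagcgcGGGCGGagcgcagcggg
Ano10: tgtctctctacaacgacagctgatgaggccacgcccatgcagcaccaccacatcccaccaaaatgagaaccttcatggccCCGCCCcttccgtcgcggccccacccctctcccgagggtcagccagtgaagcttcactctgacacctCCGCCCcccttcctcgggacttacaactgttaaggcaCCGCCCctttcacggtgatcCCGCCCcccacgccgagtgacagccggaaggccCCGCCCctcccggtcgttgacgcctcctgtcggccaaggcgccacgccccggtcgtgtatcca

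The Ano7 window held 0 GC boxes and was 56.7% G and C. The Ano6 and Ano10 windows held 3 and 5 GC boxes and were 69.7% and 65.7% G and C, where the median over 32851 windows of all genes was 52.7%. A GC box was found in 35.7% of all those windows. Members that did not pass also held GC boxes, 4 in the Ano1 window and 1 each in a window of Ano2 and of Ano4. The Ano1 window was 71.7% G and C. The core bound by RBPJ, the DNA-binding partner of Notch, was searched as TGGGAA and was found in 25.6%. Over the family, 8 of 10 genes had a window in the table, 11 windows in all. The RBPJ core was matched once each in a window of Ano1, Ano2 and Ano4. The AP-1 site, searched as TGAGTCA, was in 5.20% of all windows and in 0 of the 11. The TATA box, taken as TATAAA, was in 13.6% of all windows and was matched once, in a window of Ano3. These are matches of letters in a window and say nothing about binding.

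Ano7 was first described as a protein of the human prostate, and its role in skin is not settled. It was at 4.50, 4.61, 4.39 and 4.63 on knockout arrays 1 to 4, against 7.17, 6.81, 6.96 and 5.997 on wild-type arrays 1 to 4. Every knockout lay far below every wild type, and the lowest wild type was array 4, the one with the most muscle and dermal signal. The means were 4.53 ± 0.11 in the knockout and 6.74 ± 0.51 in wild type (SD, n = 4 each), and the difference was -2.20 (SE 0.22, 95% interval -2.68 to -1.72, limma adjusted p = 0.0010). Ano7 signal thus fell by 78.3%, with wild type 4.60-fold higher. The 4 knockouts were close together, and whether Ano7 RNA was left there cannot be read from these values. Ano7 passed in all 19 alternative fits, from -2.46 to -1.65. Without wild-type arrays 3 and 4 the difference was -2.46 (adjusted p = 0.00010).

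Ano6 is a calcium-dependent phospholipid scramblase, known in humans from Scott syndrome, a bleeding disorder in which platelets fail to expose phosphatidylserine. It was at 7.24, 7.53, 7.33 and 7.13 on knockout arrays 1 to 4, against 6.89, 6.62, 6.65 and 6.60 on wild-type arrays 1 to 4. All knockouts were higher than all wild types, and wild type 1 came nearest to them. The means were 7.31 ± 0.17 in the knockout and 6.69 ± 0.14 in wild type (SD, n = 4 each). The difference of 0.62 (SE 0.11, 95% interval 0.37 to 0.87, limma adjusted p = 0.011) is a rise of 53.4%. Ano6 kept its call when any 1 array was left out (highest adjusted p = 0.041). Without both wild-type arrays 3 and 4 the difference was 0.55 and missed the threshold (adjusted p = 0.062).

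Ano10, a protein of the endoplasmic reticulum linked in humans to a recessive cerebellar ataxia, was slightly lower in the knockout. It was at 6.46, 6.41, 6.34 and 6.29 on knockout arrays 1 to 4, against 7.02, 6.68, 6.69 and 6.74 on wild-type arrays 1 to 4. The groups did not overlap, and wild type 1 was the highest array. The means of 6.37 ± 0.08 in the knockout and 6.78 ± 0.16 in wild type (SD, n = 4 each) differed by -0.41 (SE 0.10, 95% interval -0.64 to -0.18, limma adjusted p = 0.038), so its signal fell by 24.5%. This call was near the threshold. It was lost when any 1 array other than wild-type array 4 was left out, in 7 of 8 such fits, with differences between -0.44 and -0.33 and adjusted p up to 0.097. It was also lost without both wild-type arrays 3 and 4 (-0.47, adjusted p = 0.076) and after median centring (-0.30, adjusted p = 0.10), which moves the median of all genes to 0.10.

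**Figure D2:**
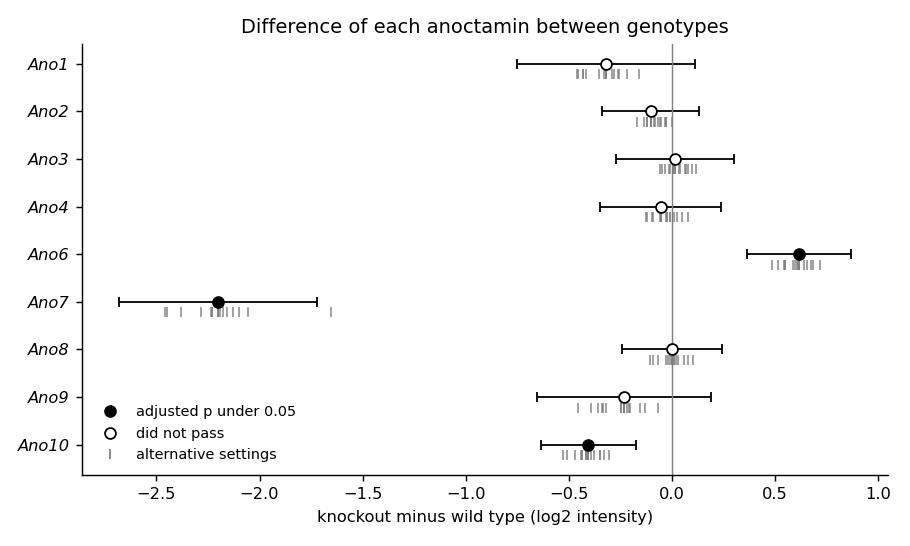
Difference of each measured anoctamin, knockout minus wild type in log2 intensity, with its 95% interval, filled where the adjusted p was under 0.05. Grey ticks give the difference under each alternative setting. Ano7 at -2.20 lies far from the other members, Ano6 is at 0.62, Ano10 at -0.41, and the other intervals cross 0.

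Ano1 and Ano2, the calcium-activated chloride channels of the family, did not pass. Ano1, the channel of secretory epithelia and of several smooth muscles, was at 6.44, 6.12, 6.02 and 5.54 on knockout arrays 1 to 4, against 6.47, 6.45, 6.54 and 5.94 on wild-type arrays 1 to 4. The groups overlapped, and wild-type array 4 lay well under the other 3 wild types. The difference was -0.32 (SE 0.19, 95% interval -0.75 to 0.11, adjusted p = 0.33). It was -0.46 without wild-type array 4 (adjusted p = 0.13) and -0.16 without knockout array 4, the lowest knockout (adjusted p = 0.62). Ano2, known from olfactory neurons and photoreceptors, was at 2.77 to 2.99 in the knockouts and 2.80 to 3.16 in wild type, with a difference of -0.10 (95% interval -0.34 to 0.13, adjusted p = 0.58). Leaving out wild-type array 1 gave -0.17, leaving out wild-type array 2 gave -0.052, leaving out knockout array 3 gave -0.059, and median centring gave -0.0014. The signal was close to the 25th percentile of all probe sets used on each array (2.83 to 3.03), and no detection calls were used.

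Ano9 and Ano8 gave no call either. Ano9, a member found in epithelia, was at 6.55, 6.67, 6.39 and 6.89 on knockout arrays 1 to 4, against 7.35, 6.82, 6.90 and 6.37 on wild-type arrays 1 to 4. Wild-type array 1 was the highest and wild-type array 4 the lowest of all 8, so the groups overlapped fully. The difference of -0.23 (SE 0.19, 95% interval -0.65 to 0.19, adjusted p = 0.48) was -0.39 without wild-type array 4 and -0.07 without wild-type array 1. Ano8, which in mammalian cells tethers the endoplasmic reticulum to the plasma membrane, was at 5.87 to 6.30 in the knockouts and 6.02 to 6.20 in wild type. Its group means differed by 9.2e-06, with a 95% interval of the difference from -0.24 to 0.24 (adjusted p = 1.00).

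The neuronal members Ano3 and Ano4 gave low signal on every array. Ano3 was at 1.46, 1.36, 1.80 and 1.82 on knockout arrays 1 to 4, against 1.51, 1.58, 1.51 and 1.78 on wild-type arrays 1 to 4. Ano4 was at 2.10, 1.79, 1.99 and 1.65 on knockout arrays 1 to 4, against 1.81, 2.07, 1.75 and 2.13 on wild-type arrays 1 to 4. All of these values were below the 25th percentile of their arrays, a position that also depends on the probes, so whether they are above background is not known. The differences were 0.02 for Ano3 (95% interval -0.27 to 0.30) and -0.06 for Ano4 (95% interval -0.35 to 0.24). The second Ano3 probe set, with a mean of 1.50 over all arrays against 1.60 for the one used, differed by -0.08.

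The members also varied within a group. In wild type the SD over the 4 arrays was 0.51 for Ano7 and 0.40 for Ano9, which both had their lowest wild-type value on array 4, as did Ano1 (SD 0.27). It was 0.14 for Ano6, 0.16 for Ano10 and 0.08 for Ano8, and the lowest Ano6 value in wild type was also on array 4. In the knockouts the SD ran from 0.08 for Ano10 to 0.37 for Ano1.

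Some markers of the cell types in skin differed between the groups as well, and their part in the anoctamin differences was not tested. Over all genes 8.75% were called, 6.41% higher and 2.34% lower. The share called was 44.4% of the keratinocyte, 30% of the sebaceous, 58.3% of the macrophage and 40% of the melanocyte list. It was 26.7% of the hair follicle, 20% of the sweat gland and 10% of the mast cell list. These shares rest on few genes and were not tested, and brighter genes passed more often than all genes together. Of 9 keratinocyte markers 4 rose (Dsg3 by 1.17, Krt14 by 0.63, Krt15 by 0.46 and Krt5 by 0.37). In that list 6 were above 0, while Krt10 (-0.17), Krt1 (-0.07) and Lor (-0.04) were below 0 and did not pass. The list's summed log2 intensity was 14.65 to 14.78 in the knockouts and 14.33 to 14.69 in wild type. Of 10 sebaceous gland markers 3 fell, Mgst1 (-1.69), Elovl3 (-1.02) and Far2 (-0.59), with sums of 8.45 to 8.76 in the knockouts and 8.80 to 10.16 in wild type. Of 12 macrophage markers 7 fell, led by Lyz2 (-2.42), C1qc (-1.17) and C1qb (-1.09), with sums of 7.68 to 8.13 in the knockouts and 8.68 to 9.47 in wild type. Among 10 melanocyte markers 4 rose, led by Mlana (1.01), Slc45a2 (0.72) and Pmel (0.66), with sums of 9.30 to 9.90 in the knockouts and 8.66 to 9.21 in wild type. Of 15 hair follicle markers 4 rose, led by Lgr6 (0.81), Lhx2 (0.65) and Sox9 (0.65). In that list 10 were above 0 and the median was 0.19. The 5 below 0, which included Krt71 (-0.68) and Krt25 (-0.56), did not pass. The hair follicle sums were 11.74 to 11.96 in the knockouts and 11.22 to 11.66 in wild type. Of 10 sweat and exocrine gland markers Foxa1 (-0.50) and Aqp5 (-0.41) fell, and their sums overlapped at 8.74 to 8.98 in the knockouts and 8.76 to 8.95 in wild type. The mast cell list lay mostly the other way from its 1 call. Of its 10 markers 8 were below 0 and the median was -1.28, while Kit (1.09), which melanocytes also express, passed, with sums of 7.63 to 7.85 in the knockouts and 7.37 to 10.59 in wild type.

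Several of these marker calls did not hold in all 8 fits with 1 array left out. Krt5 lost its call in 7 fits, passing without wild-type array 1, and so did Aqp5. Dsg3, Mgst1 and the macrophage marker Fcgr3 lost theirs in 6 fits, each passing without wild-type array 1 or 4. Krt15 lost its call in 6, all except those lacking wild-type array 2 or 4, and Far2 in 6, all except those lacking wild-type array 4 or knockout array 4. Sox9 lost its call in 5 fits, those lacking wild-type array 2 or 3 or knockout array 2, 3 or 4, and Lhx2 in 4 of those 5, passing without wild-type array 2. Foxa1 lost its call in 3 fits (wild-type array 2, knockout array 2 or 3) and Lgr6 in 2 (wild-type array 3, knockout array 2). Krt14 and Elovl3 each lost theirs without knockout array 2. The 4 melanocyte calls, Kit, Krt17 and the other 6 macrophage calls held in every such fit.

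In the remaining marker lists 0 members passed in limma. The member with the smallest p was Acta1 (-2.40) of 18 skeletal muscle markers, Col1a1 (-1.93) of 9 dermal markers, Myh11 (-0.33) of 8 smooth muscle markers, Fabp4 (-2.23) of 11 adipocyte markers, Cldn5 (-0.80) of 10 endothelial markers and Sox10 (0.42) of 7 nerve markers. Their adjusted p ran from 0.091 for Sox10 to 0.23 for Cldn5. Sox10, which is also in the melanocyte list, lay the other way from most nerve markers. Of those 7, 6 were below 0 and the median was -0.27. Without wild-type arrays 3 and 4, 1 keratinocyte and 1 hair follicle marker rose and 0 sweat gland markers fell, while the sebaceous list again had 3 lower, with Scd1 (-1.15) passing and Far2 not, the macrophage list 6 lower and the melanocyte list 4 higher. Dcn, the 1 dermal marker above 0 with all 8 arrays (0.48), then rose, and 2 mast cell markers, Hdc and Tpsb2, then fell. Over all genes fewer passed in that fit, 591 higher and 334 lower, against 1277 and 467 with all 8 arrays.

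**Figure D3:**
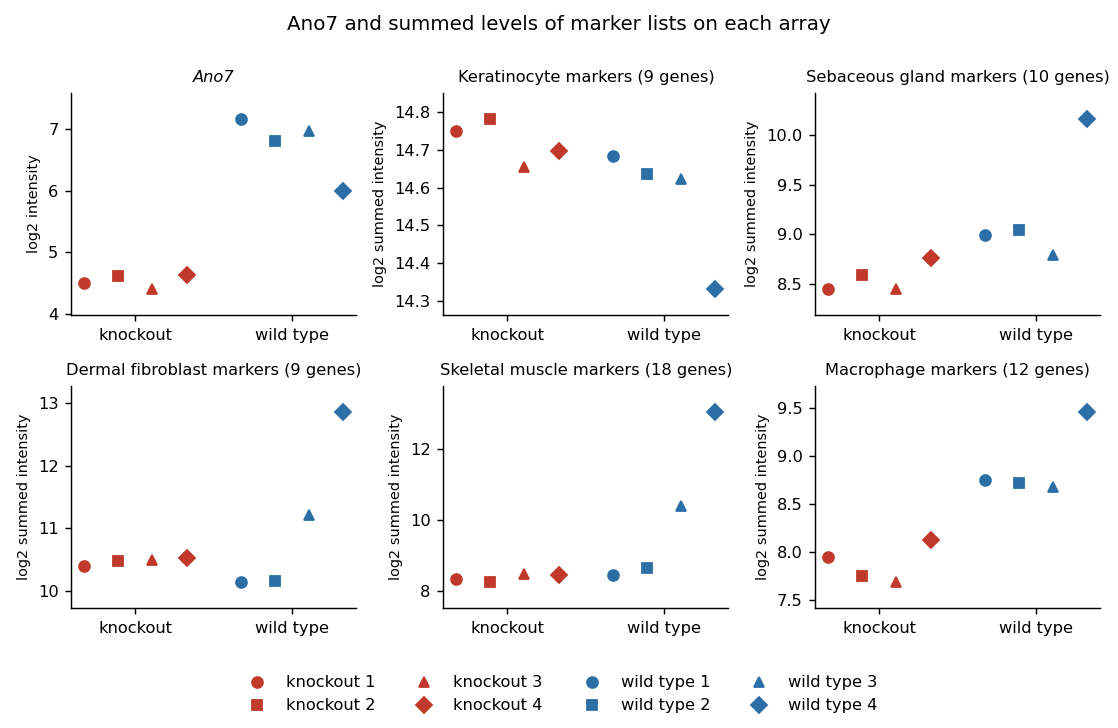
Log2 intensity of Ano7 and log2 summed intensity of 5 marker lists on each array, knockouts in red to the left of wild types in blue. Ano7 is at 4.39 to 4.63 in the knockouts and 5.997 to 7.17 in wild type, wild-type array 4 has the lowest Ano7 value of its group and the highest dermal, muscle, sebaceous and macrophage sums, and the keratinocyte sums overlap.

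Genes whose pattern was most like that of each called anoctamin were found by the root mean square difference over the 8 arrays, after each gene was centred on its own mean. For Ano7 they were Bbox1, the last enzyme of carnitine synthesis (0.29 log2 units), Abhd14b, a hydrolase (0.32), and Oas1f, of the oligoadenylate synthetase family (0.34). Bbox1 averaged 6.24 ± 0.17 in the knockout and 7.93 ± 0.48 in wild type, Abhd14b 3.89 ± 0.42 in the knockout and 5.84 ± 0.19 in wild type, and Oas1f 5.80 ± 0.04 in the knockout and 7.45 ± 0.29 in wild type (SD, n = 4 each). For Ano6 they were Lmo4, a LIM-domain cofactor of transcription (0.05), Plscr3, of the phospholipid scramblase family (0.06), and Scin, a calcium-dependent actin-severing protein (0.06). Lmo4 was higher by 0.62, Plscr3 by 0.56 and Scin by 0.66 in the knockout. For Ano10 they were Me1, the cytosolic malic enzyme (0.06), Cd33, a sialic acid-binding receptor of myeloid cells (0.06), and Aknaos, an antisense transcript of Akna (0.07). Me1 changed by -0.41, Cd33 by -0.43 and Aknaos by -0.29, of which Aknaos did not pass (limma adjusted p = 0.12). The genotype difference is part of this measure, so the differences of the matched genes follow from how they were picked and are no separate result. Small values of this measure come more easily to genes that vary little.

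The 6 related lists are read against the 8.75% of all genes called. That share takes in dim genes. Of the 9968 genes above the median level 1835 were higher and 511 lower in a fit of their own, so it is low for brighter lists. The share called was 9.09% of the TMC and TMEM63 genes, 9.38% of the chloride channels, 7.14% of the chloride transporters and 3.70% of the calcium genes, near or under that of all genes. It was 19.2% of the scramblases and flippases and 27.3% of the membrane repair genes, from 5 and 3 calls, and these shares were not tested. The structural relatives of the anoctamins gave 1 call. Of 11 TMC and TMEM63 genes, which include the mechanotransduction channels of the inner ear, Tmc3 fell, and the list median was -0.06. Tmc3 was at 3.20, 3.43, 3.57 and 3.51 on knockout arrays 1 to 4, against 4.45, 3.71, 4.05 and 3.88 on wild-type arrays 1 to 4. The groups did not overlap, and wild type 1 was highest. Its difference of -0.59 (SE 0.16, limma adjusted p = 0.043) lost its call in 6 of 8 fits with 1 array left out, that is, in all except the fits lacking wild-type array 2 or 4. It also lost it without both wild-type arrays 3 and 4 (adjusted p = 0.094).

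Other scramblases and the flippases, which move phospholipids back to the inner leaflet, gave calls in both directions. Of 26 measured genes 3 rose and 2 fell, with a median of -0.07. Atp10a, a phosphatidylcholine flippase, was at 5.44, 5.65, 5.41 and 5.28 on knockout arrays 1 to 4, against 4.67, 4.35, 4.14 and 4.12 on wild-type arrays 1 to 4. Each knockout lay above each wild type, by a mean of 1.13 (SE 0.14, limma adjusted p = 0.0025), and the call held without any 1 array. Plscr1, an interferon-inducible member of the Plscr family, was at 5.20, 5.37, 5.36 and 6.05 on knockout arrays 1 to 4, against 6.38, 6.32, 6.20 and 6.55 on wild-type arrays 1 to 4. Knockout 4 came close to the wild types without reaching them. Its difference of -0.87 (SE 0.17, adjusted p = 0.015) lost its call without knockout array 2 or 3. Plscr3 was at 6.25, 6.43, 6.15 and 6.05 on knockout arrays 1 to 4, against 5.84, 5.56, 5.64 and 5.57 on wild-type arrays 1 to 4. Plscr1 and Plscr3 thus went in opposite directions, and Plscr3 (0.56, SE 0.11, adjusted p = 0.015) lost its call without knockout array 2 and without both wild-type arrays 3 and 4. The flippases Atp8b2 (0.58, adjusted p = 0.020) and Atp8a1 (-0.64, adjusted p = 0.0497) lost theirs in 3 and 6 of 8 fits with 1 array left out. Atp8b2 lost it in the fits lacking wild-type array 3, knockout array 1 or knockout array 2, and Atp8a1 passed without wild-type array 4 or knockout array 4.

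Among 32 other chloride and anion channels and their regulators 3 rose and 0 fell, with a median of -0.04. Clic4 and Clic1, of the chloride intracellular channel family, rose by 1.04 (SE 0.14, adjusted p = 0.0035) and 0.69 (SE 0.09, adjusted p = 0.0030) and kept their calls without any 1 array. Clic4 was at 8.39, 8.48, 8.20 and 8.18 on knockout arrays 1 to 4, against 7.47, 7.08, 6.99 and 7.54 on wild-type arrays 1 to 4. Clcn4, an endosomal chloride and proton exchanger, rose by 0.37 (adjusted p = 0.039) and lost its call in 5 of 8 such fits, all except those lacking wild-type array 1 or 4 or knockout array 4. The calcium-activated chloride channel regulators Clca2 (-0.69, adjusted p = 0.051), Clca3a1 (-0.77, adjusted p = 0.053) and Clca3a2 (-0.69, adjusted p = 0.096) missed the threshold. Without wild-type arrays 3 and 4 these 3 passed, at -0.92, -0.91 and -0.98 (adjusted p 0.0098, 0.043 and 0.0091), while 2 of the list rose. Clca3a1 and Clca3a2 are close copies of each other, so their probe sets may share signal. Genes named as passing only without those arrays, like the Clca genes, were picked with their values in view.

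The 14 chloride cotransporters and exchangers had 1 rise, 0 falls and a median of -0.05. Slc12a4, a potassium and chloride cotransporter, was at 7.28, 7.44, 7.45 and 7.13 on knockout arrays 1 to 4, against 6.64, 6.55, 6.69 and 6.56 on wild-type arrays 1 to 4, a difference of 0.71 (SE 0.10, limma adjusted p = 0.0039). All knockouts were above all wild types, and the call held without any 1 array. Without wild-type arrays 3 and 4 Slc26a2, a sulfate transporter, also passed, at -0.996 (adjusted p = 0.014). Of 27 genes of calcium entry and release 1 rose and 0 fell, with a median of 0.06. It was Atp2b1, a calcium pump of the plasma membrane (0.56, SE 0.13, adjusted p = 0.025). Leaving out wild-type array 2 or 3, knockout array 1, 2 or 3, or wild-type arrays 3 and 4 together lost the call. Atp2a1 (-1.68) and Ryr1 (-0.49), also in the skeletal muscle list, were highest on wild-type arrays 3 and 4 and did not pass.

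Membrane repair genes had a median of 0.42, with 3 of 11 higher and 0 lower. In that list 6 were above 0 and 5 below. Among those below, Trim72 (-0.63) and Cav3 (-0.52) were highest on wild-type arrays 3 and 4, the arrays with muscle signal. Myof, a ferlin of membrane fusion and repair, was at 7.36, 7.30, 7.09 and 6.78 on knockout arrays 1 to 4, against 6.35, 5.92, 5.89 and 5.23 on wild-type arrays 1 to 4. The groups did not overlap, and the lowest value was on wild-type array 4. Its difference was 1.28 (SE 0.22, limma adjusted p = 0.0077). Ehd2, an ATPase of caveolae, rose by 0.81 (SE 0.13, adjusted p = 0.0059), and both kept their calls without any 1 array. Anxa2, a calcium-dependent phospholipid-binding protein, rose by 0.56 (adjusted p = 0.021) and lost its call in the same 5 of 8 fits as Clcn4. Without wild-type arrays 3 and 4 the count was again 3, with Anxa5 (0.67, adjusted p = 0.023) passing and Anxa2 not.

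**Figure D4:**
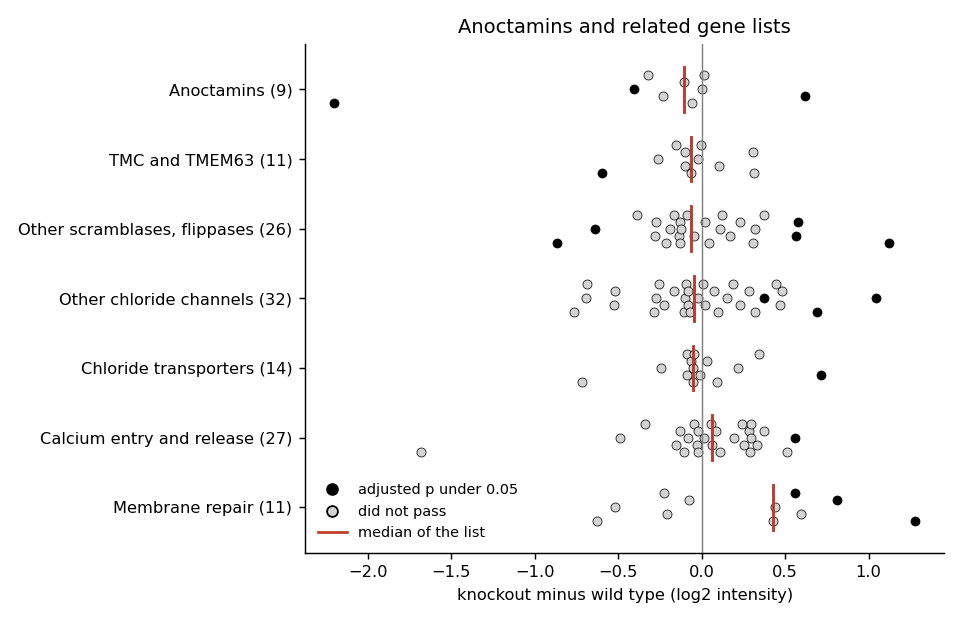
Difference of every measured gene of the anoctamin family and of 6 related lists, knockout minus wild type in log2 intensity, black where the adjusted p was under 0.05, with a red line at each list's median. Ano7 at -2.20 is the lowest point, the membrane repair median is at 0.42, and the other medians lie between -0.10 and 0.06.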

How the data were processed

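The authors deposited 1 intensity per probe set and array. The submitters' processing notes name RMA (robust multi-array average), a method that corrects background, aligns the arrays' distributions and summarises probes. The RMA version and settings and the build were not given in the sources used here. Its output is usually in log2, but the lowest value was 0.817, the highest 11173 and array medians 13.3 to 15.1, so they were read as linear and log2 was taken with no pseudocount. The distributions differed by genotype. Array medians were 13.28 to 14.09 in the knockouts and 14.15 to 15.12 in wild type. The 75th percentiles in log2 were 6.11 to 6.19 in the knockouts and 5.99 to 6.06 in wild type. The main fit did not correct this, and quantile normalization was among the alternatives. Of 35519 probe sets 21780 had 1 gene symbol, 1605 several and 12134 none. For genes with several probe sets the one with the highest mean was kept, which left 19935 genes, with no filter on dim genes. A comparison of symbols with RefSeq (GRCm38.p6) by Entrez identifier changed 0 of them.

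Knockout was compared with wild type in limma 3.58.1 (R 4.3.3, lmFit and eBayes, two-sided, Benjamini-Hochberg over all genes, threshold 0.05). The fit was also run on simulated data, and the outcome of that run is not reported here. All 10 anoctamins and Adam10 are named. From each gene list the up to 3 largest rises and falls that passed are named, or the member with the smallest p, and for each called anoctamin the 3 genes most like it. The members and lists were chosen with earlier results of these data known. Arrays give no read depth, and their number limits the precision. Brightness depends on the probes, so members were not ranked by level, and a percentile given for a dim member describes its signal and not how much RNA there was.

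The alternatives were 3 normalizations, 2 filters on dim genes, averaging a gene's probe sets, testing every probe set, a trended robust prior, array weights, log2 of the value plus 16, leaving out each array, leaving out both wild-type arrays 3 and 4, and thresholds of 0.01 and 0.10. Counts of the other lists with arrays left out were added after the data were seen.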

Additional observations from a re-analysis of the deposited data

Results flagged for a closer look

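Ano1 in wild type had 1 array far from the others. Wild-type array 4 was at 5.94, and the nearest other wild type was at 6.45, a gap of 0.85 of the group's range. Adam10 in wild type had its lowest value, 7.06, on array 3, with the next at 7.33, a gap of 0.83 of the range. Both passed Dixon's 95% critical value for 4 samples. Of 20 groups looked at (9 anoctamins and Adam10, in each genotype) 2 stood out, and chance gives about 1 in 20.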

How the results depend on the processing

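Ano7 kept its direction and call in all 19 alternative fits, Ano6 in 18 and Ano10 in 9, and 0 of the other members passed in any. Among anoctamins 1 was lower after median centring, with all probe sets, without wild-type arrays 3 and 4 or at a threshold of 0.01, and 0 were higher in the last of these, or without wild-type arrays 3 and 4. Leaving out 1 array gave 1 higher and 1 to 2 lower anoctamins. Members near 0 changed sign, Ano3 to -0.034 with the mean of its probe sets, Ano4 to 0.047 after median centring and 0.079 with array weights, and Ano8 to -0.093 after quantile normalization and -0.11 after cyclic loess. With 1 array left out they ran from -0.056 to 0.098 (Ano3), -0.13 to 0.023 (Ano4) and -0.066 to 0.078 (Ano8). Ano2, Ano3 or Ano4 gave no value under the filters that removed them. Over all genes 1277 were higher and 467 lower. Higher genes numbered 847 after quantile normalization, 769 after cyclic loess and 591 without wild-type arrays 3 and 4. Of 14951 genes above the 25th percentile 1580 were higher and 599 lower. Of 9968 above the median level 1835 were higher and 511 lower. Higher and lower counts were 2453 and 286 after median centring, 792 and 307 with all probe sets, 2405 and 1216 with array weights, 350 and 128 at 0.01, and 2060 and 898 at 0.10. With 1 array left out they ran from 426 to 1417 and from 161 to 647. Adam10 was read in 17 alternative fits, which did not include the trended robust prior or array weights. It passed in 5, after quantile normalization (-0.46) and cyclic loess (-0.49), with log2 of the value plus 16 (-0.32) and with either filter on dim genes (-0.36). The filters test fewer genes. Beyond what those constructions show, the cause was not tested. No paired analysis was possible because the labels give the groups no shared replicate numbers.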
